A study of Homo sapiens with 4 samples.

Results

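In SK-N-MC cells, 7230 promoter regions carried acetylated lysine 27 of histone H3 (H3K27ac) and met neither a FLI1 peak nor an SSRP1 peak. They were 51.4% of the 14055 acetylated promoter peaks considered (95% interval 50.6 to 52.3), 19.4% of all 37195 H3K27ac peaks and 30.5% of the H3K27ac peaks without FLI1 or SSRP1 anywhere in the genome. Members were chosen by measured overlaps: an H3K27ac peak on chromosomes 1 to 22 or X, under 4000 bp wide, that came within 2.5 kb of a protein-coding gene's transcription start site (TSS; the span to 2.5 kb either way is its TSS window), and that shared less than 20% of either peak with every FLI1 and every SSRP1 peak. The other acetylated promoter peaks were 1296 with FLI1 without SSRP1, 3013 with SSRP1 without FLI1, and 2516 with both. These overlaps and the counts that follow from them are descriptions of the choice.

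SK-N-MC is an established Ewing sarcoma cell line, so all values come from 1 line, untreated as far as the labels state. ChIP-seq, which recovers the DNA bound by an antibody's target, was done for H3K27ac, SSRP1 and FLI1 with 1 library each, beside an input library of unselected chromatin. There are no replicates, so intervals are 95% exact binomial (Clopper-Pearson) intervals of a share, or intervals of an odds ratio. They cover counting error only, and peaks are not replicates. The peak lists held 37195 H3K27ac, 19855 SSRP1 and 36305 FLI1 intervals on the chromosomes used. The depth of the libraries and the height of peaks were not analysed here. As a check of the cell type, 8 of 8 Ewing sarcoma markers had H3K27ac at a TSS, 8 had SSRP1 and 7 had FLI1. Of 18 markers of other cell types 1 had H3K27ac (HAND2), 2 had SSRP1 and 5 had FLI1. Of all 20098 protein-coding genes, 11628 had H3K27ac, 7189 SSRP1 and 5832 FLI1. FLI1 was thus about as frequent at the markers of other cell types as at all genes.

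H3K27ac marks the nucleosomes beside active promoters and enhancers. Ewing sarcoma cells make a fusion of EWSR1 with the ETS factor FLI1, which binds ETS sites (core CCGGAA) and runs of GGAA. SSRP1 is a subunit of FACT, the histone chaperone that loosens and rebuilds nucleosomes during transcription and replication. Most promoters of widely used genes lie in CpG-rich DNA and are read by general promoter factors, among them NRF1, YY1, NF-Y (which binds CCAAT), the SP and KLF proteins (GC box) and other ETS proteins.

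The sequences of member promoters that carry the motifs described further on are shown first. Each stretch comes from the widest eligible TSS-covering member with that motif, is written 5′ to 3′ on the strand of its gene (GRCh37, the same assembly as hg19), and has the matched letters in capitals. For the 3 of 100 bases, no annotated exon is met: ACBD5 (chr10:27530806-27530905, minus strand, ETS core 61 bp before the TSS), USP5 (chr12:6961197-6961296, plus strand, NRF1 motif 69 bp before the TSS) and FTSJ1 (chrX:48334279-48334378, plus strand, YY1 motif 84 bp before the TSS). In all 3 the match lies on the opposite strand of the motif as spelled in the text.
ACBD5 promoter, ETS core: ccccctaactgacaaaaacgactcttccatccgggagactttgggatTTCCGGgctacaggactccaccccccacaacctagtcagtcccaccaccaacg
USP5 promoter, NRF1 motif: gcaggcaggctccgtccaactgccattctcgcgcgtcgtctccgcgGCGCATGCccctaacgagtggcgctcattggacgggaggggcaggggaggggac
FTSJ1 promoter, YY1 motif: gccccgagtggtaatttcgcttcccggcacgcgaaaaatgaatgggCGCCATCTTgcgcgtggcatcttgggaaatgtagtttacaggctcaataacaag
ACBD5 encodes a peroxisomal membrane protein, USP5 a deubiquitinase and FTSJ1 a tRNA methyltransferase.

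Stretches of 30 bases show 5 further motifs: the CCAAT box of PKNOX2 (chr11:125034649-125034678, plus strand), a GC box of ACBD5 (chr10:27531018-27531047, minus strand), an AP-1 motif of MYL6B (chr12:56546209-56546238, plus strand), TATAAA of TXN (chr9:113018800-113018829, minus strand) and the CGCG element of ZNF414 (chr19:8579038-8579067, minus strand).
PKNOX2, CCAAT box: cagtctgatgaagATTGGcatcaggtaagc
ACBD5, GC box: gcagggcgagGGGCGGgcgtcggggacatt
MYL6B, AP-1 motif: ctggaaggacacTGAGTCAccaaccaccgc
TXN, TATAAA: ggcgtgccagTTTATAAAgggagagagcaa
ZNF414, CGCG element: ccgcccccagtCTCGCGAGagctgagaggt
The AP-1 match of MYL6B starts 150 bp before its TSS, the TATAAA match of TXN 71 bp before and the CGCG element of ZNF414 24 bp before. In TXN the capitals take in TATAAA and its overlapping copy on the other strand. Of these 5 stretches, that of TXN meets no annotated exon. A match of letters is a description of the window and does not show that a factor is bound there.

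Members were narrow acetylated peaks. Their median width was 654 bp (quartiles 414 and 1127 bp, range 300 to 3898 bp), against 1131 bp for promoter peaks with FLI1 alone, 1313 bp with SSRP1 alone and 1708 bp with both. Acetylated regions away from promoters that also met neither factor were narrower still, at 464 bp. A single summit was called in 71.5% of members, compared with 47.5% of peaks with FLI1 alone, 43.3% with SSRP1 alone and 25.4% with both. When promoter peaks were divided into 10 width groups, the share without FLI1 or SSRP1 went from 84.5% in the narrowest group (median width 321 bp) to 14.8% in the widest (2745 bp). A wider peak offers more length to meet another peak, so width and membership are tied by construction. The odds ratios that follow were taken within these 10 width groups unless stated. Shares, medians and distances were not, except where width groups are named. Within them, the odds of more than 1 summit were 1.19 times as high for members as for the bound peaks (1.07 to 1.34), where the odds ratio without width groups was 0.239.

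**Figure D1:**
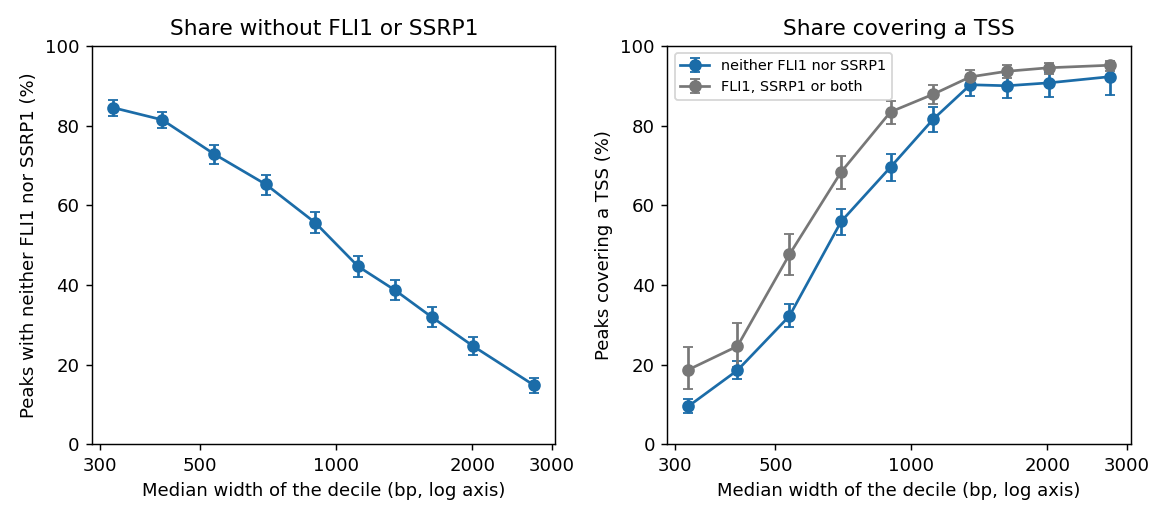
Share of acetylated promoter peaks with neither FLI1 nor SSRP1 (left) and share covering a TSS (right) in 10 width groups, against the group's median width in bp on a log axis; bars are 95% exact binomial intervals. The left curve falls from 84.5% to 14.8%, and on the right members lie below peaks with FLI1, SSRP1 or both in each group.

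The 10 widest members differed in how close FLI1 and SSRP1 came. The widest covered the TSS of ACBD5 (chr10:27528638-27532535, 3898 bp, 6 summits), and its nearest FLI1 and SSRP1 peaks were 563 and 499 kb away, on a chromosome where both lists are sparse. Members at ZMYND8, which encodes a chromatin reader (3781 bp), RIC8A, a chaperone of G protein alpha subunits (3703 bp), PPFIA1, a liprin scaffold (3588 bp), and USP5 (3586 bp) also covered a TSS, and no TSS window of these 4 genes or of ACBD5 held a FLI1 or SSRP1 peak. The member at PPFIA1 lay 0.119 kb from a FLI1 peak outside the TSS windows of the gene. The other 5 belonged to genes with such a peak elsewhere in a TSS window. The member at NEUROD6, a neuronal transcription factor (3865 bp), lay 1.31 kb from a FLI1 peak and 1.03 kb from an SSRP1 peak. That at KDM6B, an H3K27 demethylase (3798 bp), started 1227 bp downstream of the TSS and lay 2.24 kb from SSRP1. The rest were at SIRPA, the receptor for CD47 (3792 bp, FLI1 at 0.612 kb), TRMT9B, a tRNA methyltransferase-like gene (3778 bp, 949 bp upstream of the TSS) and PKNOX2, a homeobox gene (3661 bp, FLI1 at 0.783 kb).

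At the borders of the rule, members and non-members had close values. The members nearest the overlap limit were at RAB11B (19.4% shared with SSRP1) and PPP2R3C (19.8% shared with FLI1), and the nearest peaks left out were at CDKN1C (20.0%) and OCA2 (20.9%). Below the limit, 92 members (1.27%) touched a FLI1 or SSRP1 peak, 52 of them FLI1 and 42 SSRP1. The nearest peaks above the width limit were at H2BC6 (4284 bp) and TXNRD1 (4337 bp). By distance to a TSS, members at MAP4K2 and OR4E2 lay at 2499 bp, and the nearest peaks outside were at SEMA4C (2501 bp) and KLF3 (2504 bp).

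Only 3623 of the 7230 members covered their nearest TSS (50.1%, 49.0 to 51.3), whereas 73.1% of peaks with FLI1 alone, 82.3% with SSRP1 alone and 88.6% with both did so. Within width groups the odds of covering a TSS were 0.569 times those of bound peaks (0.515 to 0.628). The 3607 members beside a TSS lay upstream and downstream about equally, 1788 and 1819, at a median distance of 827 bp. Position by position, members covered the base 150 bp downstream of the TSS most often (55.1%), the same place as for peaks with FLI1 alone (76.2%) or SSRP1 alone (84.8%). Coverage was 9.05% at 1000 bp upstream and 14.01% at 1000 bp downstream, against 29.1% and 45.0% for peaks with both factors. The members belonged to 6375 TSS positions of 5612 nearest genes, so some shared a TSS.

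**Figure D2:**
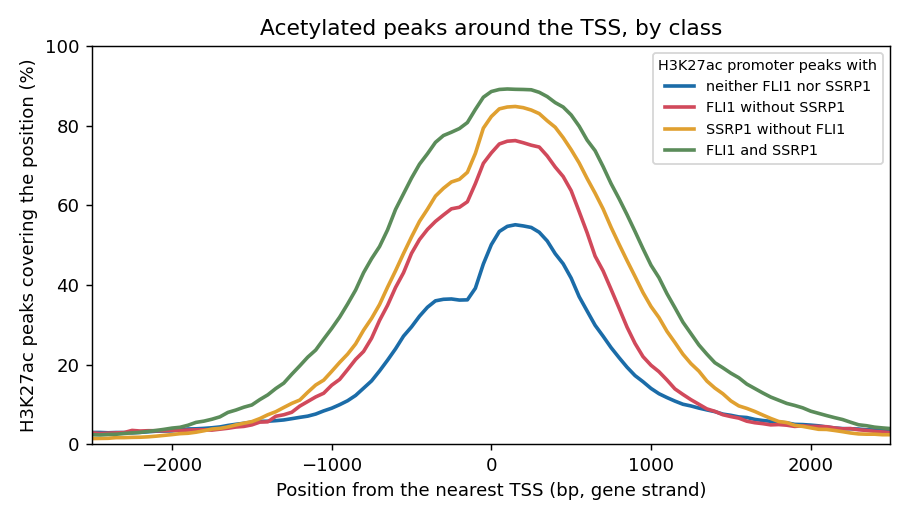
Share of H3K27ac promoter peaks (%) that cover each position from 2500 bp upstream to 2500 bp downstream of the nearest TSS, on the gene's strand, 1 line per class. The line for members peaks at 55.1%, below the other 3 classes, and all classes are highest just downstream of the TSS.

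Members that covered their TSS and members beside it differed in what their genes carried, a difference that the rule itself shapes. A member over its TSS leaves little room there for a FLI1 or SSRP1 peak, whereas a member beside it leaves the TSS free. Of members that covered their TSS, 2896 of 3623 (79.9%, 78.6 to 81.2) belonged to a gene with no FLI1 and no SSRP1 peak in any of its TSS windows. Of members beside their TSS, 1324 of 3607 (36.7%, 35.1 to 38.3) did, while 22.5% belonged to genes with SSRP1 alone, 11.3% with FLI1 alone and 29.4% with both. A FLI1 or SSRP1 peak lay within 5 kb of 23.8% of the TSS-covering members and of 64.3% of those beside a TSS. The median distance to the nearest FLI1 peak was 27.7 kb for the first kind and 7.89 kb for the second, and to SSRP1 45.3 and 3.96 kb. Over all members these medians were 16.3 kb for FLI1 and 20.5 kb for SSRP1. These gene counts and distances use the same peaks as the rule and are descriptions.

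The promoter DNA at the TSS nearest to members was less GC-rich than that at the TSS nearest to peaks with SSRP1. In the window from 250 bases before to 50 after the nearest TSS, median GC content was 64.3% for members and also 64.3% for FLI1 alone, against 70.0% for SSRP1 alone and 69.3% for both. The canonical TSSs of all protein-coding genes had 63.7%. Members that covered their TSS had a median of 64.7%. In each of the 10 width groups the median of members was below that of bound peaks, from 63.7% and 68.7% among the narrowest peaks to 65.3% and 70.0% among the widest. Windows under 50% GC made up 9.71% of members (9.04 to 10.4), 6.40% of peaks with FLI1 alone, 3.19% with SSRP1 alone and 2.62% with both. This share was 13.4% for members beside a TSS and 6.07% for those covering it. The ratio of observed to expected CpG had a median of 0.832 in members, 0.846 with FLI1 alone, 0.880 with SSRP1 alone and 0.864 with both. Windows were taken once per peak, here and for the motifs below, and the 7230 members had 6375 TSS positions. Of members beside their TSS, 63.3% belonged to genes with FLI1 or SSRP1 in a TSS window. A TSS can thus count more than once, also in different classes, so intervals can be too narrow.

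The ETS core was found in member promoter windows less often than at peaks with FLI1 alone and more often than at peaks with SSRP1 alone. The window lies at the nearest TSS, which 3607 members do not cover, and of the members 659 belonged to genes with FLI1 alone and 1291 to genes with both factors in a TSS window. CCGGAA, on either strand, occurred in 27.2% of member windows (26.2 to 28.2) and in 22.8% of windows at the canonical TSSs of all protein-coding genes. It occurred in 42.0% of windows with FLI1 alone, 31.7% with both factors and 21.4% with SSRP1 alone. Within width groups, the odds of a core in members were 0.569 times those of peaks with FLI1 alone (0.501 to 0.645), 0.877 times those of peaks with both (0.781 to 0.986) and 1.52 times those of peaks with SSRP1 alone (1.36 to 1.69). Against all bound peaks together the odds ratio was 0.998 (0.919 to 1.08), a sum of these opposite differences. At least 2 cores were present in 7.55% of member windows and in 16.5% of windows with FLI1 alone. Of all 3953 acetylated promoter windows with a core, 1965 (49.7%) belonged to members, and in members the core started at a median of 68 bp before the TSS, as in the ACBD5 stretch. A pair of GGAA repeats (GGAAGGAA) occurred in 3.24% of member windows, against 3.47% of all canonical TSSs, and its odds ratio against bound peaks was 0.952 (0.771 to 1.17). Against peaks with both factors it was 0.762 (0.570 to 1.02), or 0.684 (0.509 to 0.920) with GC content added. Members that covered their TSS had the ETS core in 31.5% of windows and those beside it in 22.8%.

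Motifs of 3 general promoter factors were more frequent in member windows than in those of all bound peaks of like width combined, though not against each class. The window lies at the nearest TSS, which 3607 members do not cover. The NRF1 motif (GCATGCGC), bound by a factor known for nuclear genes of the mitochondrion, occurred in 6.09% of member windows and in 4.25% of all canonical TSSs, with an odds ratio against bound peaks of 1.53 (1.30 to 1.81). Its odds ratio was 1.96 (1.51 to 2.53) against peaks with both factors and 1.14 (0.883 to 1.47) against FLI1 alone. The YY1 motif (AAGATGGCG) occurred in 4.34% of member windows and 2.86% of all canonical TSSs, with an odds ratio of 1.54 (1.27 to 1.87), or 1.14 (0.844 to 1.53) against FLI1 alone. Unlike the other 13 motifs, which mostly started upstream, it sat at the start of the gene: its median position was 5 bp after the TSS and 38.8% of matches started before it. The CGCG element (CTCGCGAG), which the factor BANP binds, occurred in 1.80% of member windows and 1.47% of all canonical TSSs. All bound peaks together had it in 1.77%, about the same share as members. Within width groups the odds ratio against them was 1.505 (1.14 to 1.99). Against peaks with both factors, which had it in 2.07%, the ratio was 1.39 (0.959 to 2.03). With GC content added to the width groups the ratios were 1.55 for NRF1, 1.45 for YY1 and 1.54 for the CGCG element. All 3 motifs were more frequent in members covering a TSS (7.01%, 5.69% and 2.43%) than in members beside one (5.16%, 2.99% and 1.16%).

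Against all bound peaks, differences in 4 other motifs of the window at the nearest TSS were smaller once GC content was added, with intervals that then included 1. The CCAAT box (CCAAT) occurred in 37.6% of member windows. Its odds ratio against all bound peaks was 1.21 (1.11 to 1.30), and 1.08 (0.999 to 1.17) once GC content was added to the width groups. Against peaks with both factors, which had it in 26.3%, the ratio was 1.499 (1.33 to 1.69), and 1.35 (1.19 to 1.52) with GC content. The GC box (GGGCGG) occurred in 67.1% of member windows, with an odds ratio against all bound peaks of 0.667 (0.614 to 0.726), or 0.962 (0.873 to 1.06) with GC content. Against peaks with SSRP1 alone, which had it in 81.4%, the ratio was 0.502 (0.449 to 0.562), and 0.826 (0.725 to 0.940) with GC content. The AP-1 motif (TGANTCA) had ratios against all bound peaks of 1.24 (1.02 to 1.51) and 1.03 (0.841 to 1.26). TATAAA occurred in 5.96% of member windows and 9.65% of all canonical TSSs, with 1.30 (1.09 to 1.55) and 0.966 (0.806 to 1.16). With GC content its ratio was 0.748 (0.597 to 0.936) against SSRP1 alone and 1.36 (1.001 to 1.86) against FLI1 alone. Against peaks with both factors it was 1.00 (0.755 to 1.33). In members TATAAA was rarer at covered TSSs (4.06%) than at TSSs with the peak beside them (7.87%).

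The remaining 5 motifs had intervals within width groups that include 1 against bound peaks. The odds ratios were 1.16 (0.934 to 1.43) for the CRE (TGACGTCA), 1.10 (0.971 to 1.25) for the E-box (CACGTG), 0.997 (0.845 to 1.18) for the E2F motif (GGCGGGAA), 1.54 (0.984 to 2.41) for the ZNF143 element (ACAATTCCC) and 1.31 (0.844 to 2.04) for the RFX motif (GTTGCCATG). The last occurred in 0.802% of member windows and had an odds ratio of 3.40 (1.54 to 7.52) against peaks with SSRP1 alone. With GC content added the E-box ratio against bound peaks was 1.15 (1.01 to 1.31), and among peaks that cover their TSS the CRE ratio was 1.29 (1.01 to 1.65). All 14 motifs were searched on both strands. Some share letters: GGCGG lies in both the GC box and the E2F motif, and GGAA in the ETS core, the GGAA pair and the E2F motif.

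**Figure D3:**
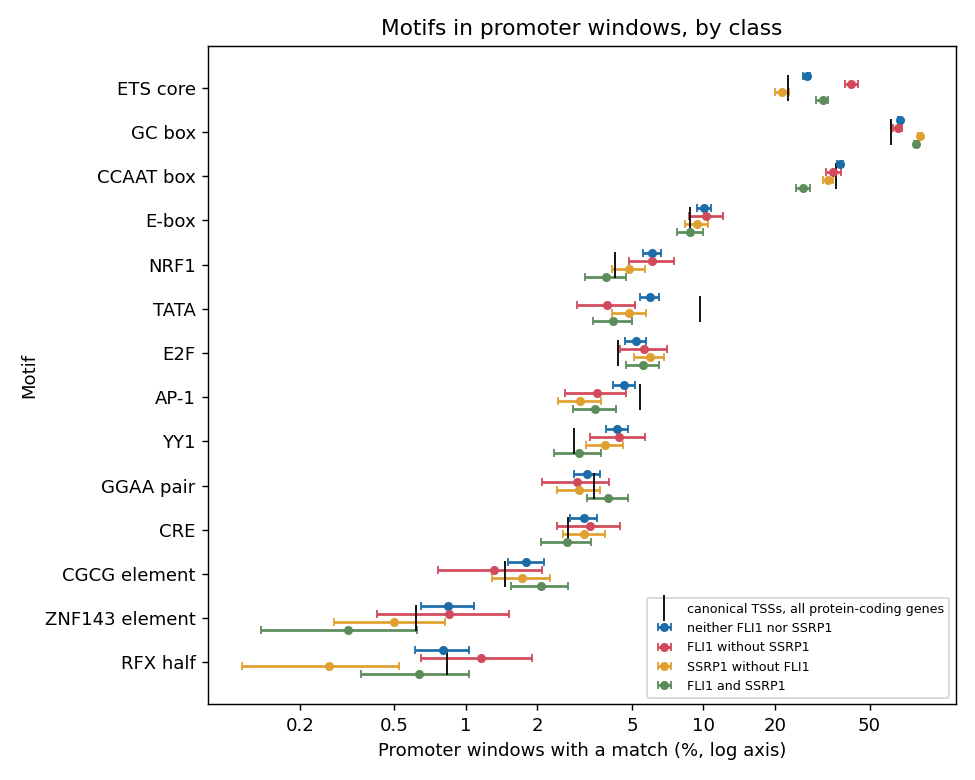
Share of promoter windows of 300 bases with a match to each of 14 motifs (%, log axis), by class, with 95% exact binomial intervals; black ticks give the share at the canonical TSSs of all protein-coding genes. Members have the ETS core in 27.2% of windows, between SSRP1 alone (21.4%) and FLI1 alone (42.0%), and have more CCAAT and fewer GC box windows than peaks with both factors.

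Members differed in GC content and in several motifs, though not all, from acetylated regions away from promoters that also lacked both factors. In 300 bases at the peak centre, members had a median GC content of 59.3% and the 16384 distal regions 50.3%. The ETS core was present in 13.997% of members and 3.67% of distal regions (odds ratio within width groups 3.81, 3.41 to 4.26). The AP-1 motif, a mark of many enhancers, had the opposite order, 4.92% of members and 8.53% of distal regions (0.564, 0.4996 to 0.636). So, among others, had the CCAAT box, with 22.7% and 29.2% (0.687, 0.643 to 0.735). The intervals of the GGAA pair (0.934, 0.797 to 1.10), the ZNF143 element (1.06, 0.539 to 2.10) and the RFX motif (1.04, 0.642 to 1.69) include 1. GC content was not added to the width groups for these ratios. The distal regions lay closer to FLI1, at a median of 6.31 kb, and 53.003% had FLI1 or SSRP1 within 5 kb, compared with 44.01% of members.

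At the level of genes, 11628 of 20098 protein-coding genes (57.9%) had H3K27ac in a TSS window, and 3853 of these (33.1%, 32.3 to 34.0) had neither FLI1 nor SSRP1 in any TSS window. A member lay in a window of 6444 genes, of which 3833 (59.5%) had neither factor. Genes with more TSSs have more windows that can hold a peak: the share with neither was 36.7% at genes with 1 TSS and 28.6% at genes with 6 or more. The counts for the gene lists are read beside the 33.1%. Genes that lie close together can share a peak, so the genes of a list are not independent and its interval can be too narrow.

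In the lists for mitochondria and peroxisomes, larger shares of acetylated genes had neither factor than the 33.1% of all genes, although the interval for peroxisome genes includes that value. Of the 84 acetylated genes of oxidative phosphorylation, 43 had neither (51.2%, 40.04 to 62.3), and of 78 genes of mitochondrial ribosomal proteins 37 (47.4%, 36.0 to 59.1). The member at ATP5F1B, the beta subunit of the catalytic part of ATP synthase, covered its TSS (970 bp) with FLI1 at 8.78 kb and SSRP1 at 8.33 kb. At ATP5F1C, the gamma subunit, the member (1051 bp) on chromosome 10, where both lists are sparse, had FLI1 at 254 kb and SSRP1 at 724 kb, and the promoter window held the ETS core, the NRF1 motif and the GC box. Members at MRPL4 and MRPL11, of the large mitochondrial ribosomal subunit, covered their TSS with FLI1 20.4 and 29.3 kb away. Of 15 peroxisome biogenesis genes, all acetylated, 9 had neither (60.0%, 32.3 to 83.7), among them PEX6, an ATPase that recycles the import receptor, with a member of 1709 bp and both factors over 33.2 kb away.

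Genes of protein synthesis and turnover gave shares on both sides of the background, with intervals that include 33.1%. Aminoacyl-tRNA synthetases, which load amino acids on tRNAs, had 18 of 36 acetylated genes with neither (50.0%, 32.9 to 67.1), for example AARS1, EPRS1 and FARS2. AARS1 lies in the part of chromosome 16 after 40 Mb, where 80.7% of acetylated promoter peaks were members. At EPRS1 the member of 616 bp covered the TSS with FLI1 at 47.4 kb. For cytoplasmic ribosomal proteins it was 29 of 78 (37.2%, 26.5 to 48.9), and 20.5% with a window of 5 kb. The member at RPL5 (1073 bp) covered its TSS with FLI1 at 6.34 kb, while that at RPL12 (300 bp) began 1615 bp downstream of the TSS with SSRP1 at 0.262 kb. Genes with EIF symbols, mostly translation initiation factors, had 19 of 51 (37.3%, 24.1 to 51.9). Proteasome subunits had 14 of 36 (38.9%, 23.1 to 56.5), and ubiquitin-conjugating enzymes 7 of 33 (21.2%, 8.98 to 38.9). Autophagy and vesicle sorting genes, a list of trafficking, had 34 of 68 (50.0%, 37.6 to 62.4), an interval above 33.1%. Among them was ATG7, which activates ATG8 and ATG12, with FLI1 at 886 kb and SSRP1 at 369 kb. ATG7 lies in the part of chromosome 3 before 120 Mb, where 73.8% of acetylated promoter peaks were members.

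Zinc finger genes of the ZNF series on chromosome 19, most of which encode DNA-binding repressors in large clusters, had 90 of 153 acetylated genes with neither (58.8%, 50.6 to 66.7). The other acetylated genes of the chromosome had 197 of 739 (26.7%, 23.5 to 30.002), a lower share. ZNF genes on other chromosomes had 86 of 209 (41.1%, 34.4 to 48.1). Chromosome 19 was not divided into parts, so whether FLI1 and SSRP1 peaks are sparse around the ZNF clusters was not tested. The 114 members nearest to a chromosome 19 ZNF gene covered the TSS in 71.9% of cases, had a median width of 735 bp and lay at medians of 36.8 kb from FLI1 and 64.0 kb from SSRP1. The member at ZNF71, for example, was 764 bp wide, covered its TSS and had FLI1 at 405 kb and SSRP1 at 337 kb.

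Lists of transcription, RNA and genome maintenance lay around the background. Acetylated genes with neither were 12 of 28 for the Mediator complex, 5 of 11 for the RNA exosome, 9 of 20 for nucleoporins, 17 of 54 for splicing factors, 16 of 38 for DNA repair, 6 of 23 for DNA replication and 20 of 55 for cilium and centriole genes. The intervals of these 7 lists include 33.1%. Of 13 acetylated genes of FACT and other histone chaperones, 3 had neither: SUPT16H, the partner of SSRP1 in FACT (member of 2219 bp, FLI1 at 32.4 kb, SSRP1 at 33.1 kb), ATRX, a chromatin remodeller, and NAP1L4, a nucleosome assembly protein. ATRX lies on chromosome X, where both lists are sparse and 80.2% of acetylated promoter peaks were members.

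Genes linked to the tumour's fusion and to developmental or acute transcription had shares below the 33.1%, with intervals under it for HOX genes, for SOX and FOX factors and for immediate early genes. Of 27 acetylated genes that EWS-FLI1 is known to activate, 6 had neither factor in a TSS window (22.2%, 8.62 to 42.3), and none of the 8 Ewing sarcoma markers did. The 6, named after their values were seen, were IGF1, AURKA, SOX6, GSTM4, CALCB and LIPI. Of 28 acetylated SOX and FOX factors 3 had neither (10.7%, 2.27 to 28.2), and of 15 immediate early genes 1, BTG2 (6.67%, 0.169 to 31.9). None of 24 acetylated HOX genes did (0%, up to 14.2%), but with a TSS window of 1 kb 8.70% did (1.07 to 28.0). HOX genes lie in clusters, where a peak can fall in the TSS windows of several genes. In the lists of EWS-FLI1-repressed genes and of p53 and NF-kB targets it was 1 of 8, ACTA2, and 2 of 10, FAS and RELB.

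**Figure D4:**
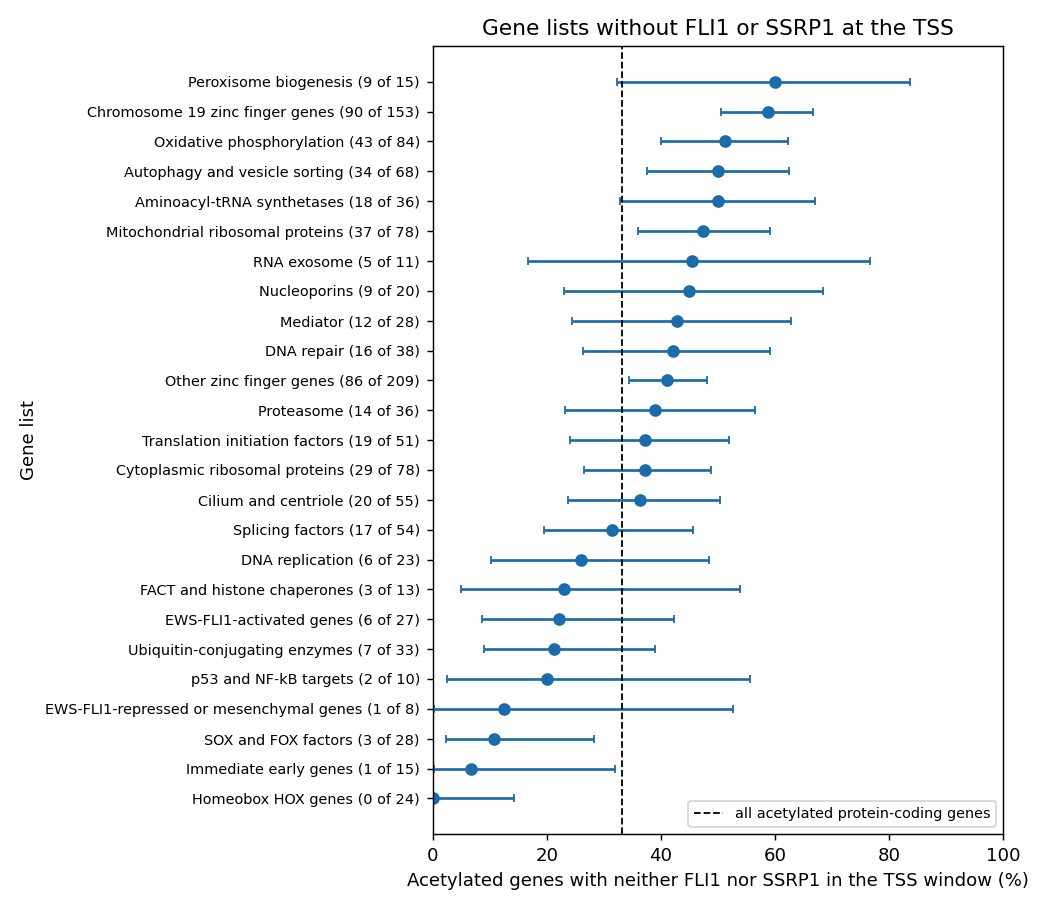
Share of acetylated genes with neither FLI1 nor SSRP1 in any TSS window (%), for the gene lists with at least 8 acetylated genes, with 95% exact binomial intervals; the dashed line is the 33.1% of all acetylated genes. Chromosome 19 ZNF genes (58.8%) and oxidative phosphorylation (51.2%) lie to the right of the line, and HOX genes (0%) to the left.

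Members also occurred at these tumour and developmental genes, but mostly beside the TSS. Of 23 members nearest to an EWS-FLI1-activated gene 4 covered the TSS (17.4%, 4.95 to 38.8), and of 13 nearest to a HOX gene 1 did (7.69%, 0.195 to 36.0). All members gave 50.1%, splicing factors 52.5%, cytoplasmic ribosomal proteins 53.4%, mitochondrial ribosomal proteins 77.1% and Mediator genes 87.5%. Where FLI1 or SSRP1 lies at a TSS, a member can hardly cover it, so the rule itself lowers the share at such genes. Several members can share a gene, so the intervals can be too narrow. The median distances to SSRP1 were 1.76 kb for the 23 members and 1.23 kb for the 13. Of the 23, 10 belonged to a gene with neither factor in a TSS window (43.5%, 23.2 to 65.5), against 58.4% of all members. At NR0B1, a nuclear receptor and a known EWS-FLI1 target, the member (368 bp) lay 1804 bp downstream of the TSS, with FLI1 at 1.65 kb and SSRP1 at 1.495 kb. At NKX2-2, a homeobox factor, it was 2931 bp wide and ended 2235 bp upstream of the TSS, with SSRP1 at 0.360 kb. At the immediate early gene JUN the member (2333 bp) began 16 bp downstream of the TSS, with SSRP1 at 0.201 kb and FLI1 at 237 kb. Of 13 members nearest to a HOX gene, none belonged to a gene free of both factors, which follows from the gene count given above.

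The share of members differed between chromosomes and was highest where the FLI1 and SSRP1 lists were sparsest. Members are defined by the absence of these peaks, so share and density are tied by the rule and their comparison is a description. On chromosome X, 80.2% of acetylated promoter peaks had neither factor (76.3 to 83.7) and on chromosome 10 79.9% (76.0 to 83.4), against 51.4% over all. FLI1 peaks per Mb were 1.12 on X and 1.79 on chromosome 10, where the median chromosome had 11.8, and SSRP1 peaks 1.06 and 1.57 against a median of 6.81. H3K27ac was 5.78 per Mb on X and 8.26 on chromosome 10, against 12.3. Chromosome 8 had the most FLI1 peaks per Mb (31.4) and the lowest share of members (36.0%). The order was not strict: chromosome 19 had 24.1 FLI1 and 26.7 SSRP1 peaks per Mb with a share of 54.7%, and chromosome 4 had 7.03 and 3.07 with 48.4%. Within chromosomes 3, 16 and 17, divided at places chosen after the densities were seen, the share was 73.8% before 120 Mb of chromosome 3 and 37.5% after, 49.3% before 40 Mb of chromosome 16 and 80.7% after, and 83.3% before 20 Mb of chromosome 17 and 50.0% after. The part of copy number or of read coverage in these densities was not tested. Without chromosomes 4, 10 and X, whose FLI1 or SSRP1 density was under 50% of the median, the share was 49.4%, and those 3 chromosomes held 990 members (13.7%), the one at ACBD5 among them.

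**Figure D5:**
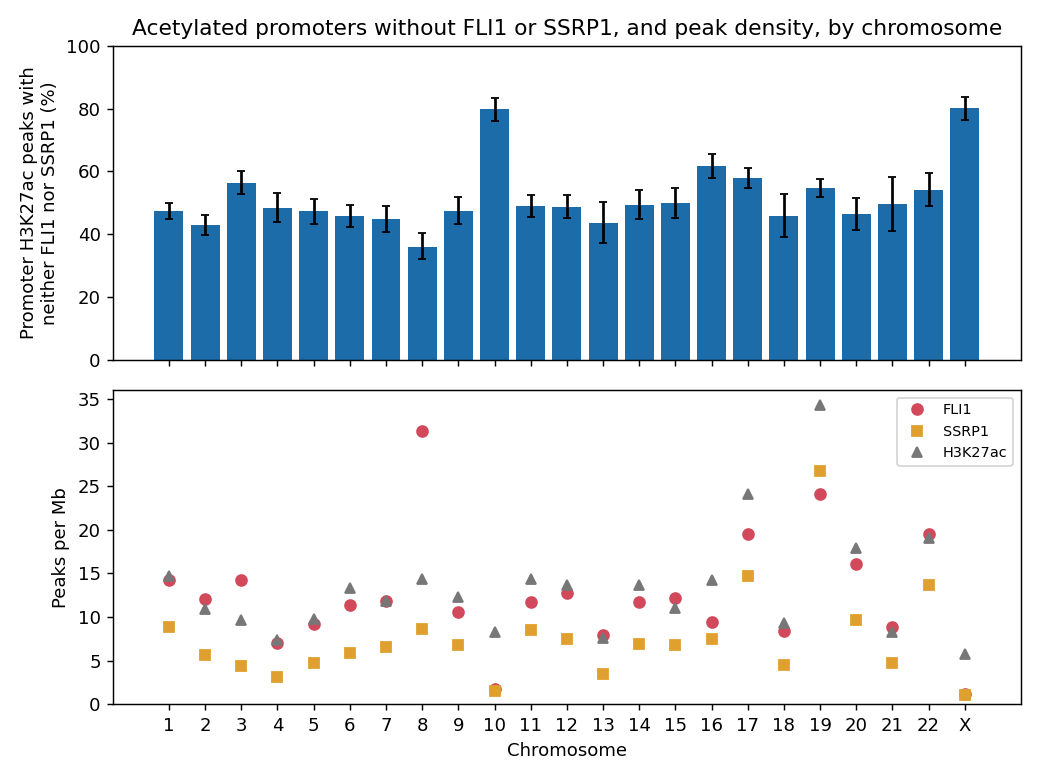
Top, share of acetylated promoter peaks with neither FLI1 nor SSRP1 on each chromosome (%, bars from 0, with 95% exact binomial intervals); bottom, FLI1, SSRP1 and H3K27ac peaks per Mb. Chromosomes 10 and X stand at 79.9% and 80.2% with under 2 FLI1 peaks per Mb, and chromosome 8 at 36.0% with 31.4.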

How the data were processed

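ChIP-seq peak lists of SK-N-MC cells were used for H3K27ac, SSRP1 and FLI1, 1 library each, each title naming its target. The design text of the series states micrococcal nuclease digestion followed by sonication, Bowtie2 alignment to hg19 and, against the input, MACS2 (2.2.7.1) peak calls by the authors. Nuclease digestion favours nucleosomal fragments, and this can shape what each antibody recovers. Read filters are not given in the sources used here. The deposited files hold only intervals and names, with no score. Intervals repeated for several summits (62198 H3K27ac, 23078 SSRP1 and 38324 FLI1 lines) were counted once.

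TSSs were those of basic transcripts of 20098 protein-coding genes in GENCODE release 44 on GRCh37. Odds ratios are Mantel-Haenszel ratios over 10 width groups with the Robins-Breslow-Greenland interval. With 1 library per target, no p-value was computed. Named genes were the 10 widest members, up to 5 members per gene list in list order, the widest TSS-covering member per motif (none on chromosome 8) and those nearest each limit. Of the lists, 1 chaperone and 1 marker of other cell types were not matched. The members and lists were chosen with earlier results of these data known. Alternatives were other overlaps, TSS windows, chromosome sets, widths and strata. Functions were tested on simulated data. The tools were samtools 1.23.1 and pysam 0.24.0 for sequence, and scipy 1.17.1, pandas 2.3.3 and numpy 2.4.6 under Python 3.11.15.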

Additional observations from a re-analysis of the deposited data

Results flagged for a closer look

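Outside the chromosomes compared, 76 H3K27ac peaks lay on chromosome Y or on contigs not placed on chromosomes 1 to 22 or X. They entered no comparison, and no peak list of the input was used here.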

How the results depend on the processing

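The share of acetylated promoter peaks without FLI1 or SSRP1 (51.4%) was 52.8% with an overlap of 50%, 46.7% and 53.9% with TSS windows of 1 and 5 kb, 50.4% on autosomes, 49.4% without chromosomes 4, 10 and X, 50.03% with no upper width, 38.3% among H3K27ac peaks at or above the median width and, chosen after seeing the data, 39.0% among peaks covering their TSS. The share of members covering a TSS (50.1%) was 64.2% and 42.3% with windows of 1 and 5 kb. The share of acetylated genes with neither (33.1%) was 35.7% and 30.1% with those windows, 31.8% on autosomes and 30.2% without chromosomes 4, 10 and X. The odds ratio of the ETS core against bound peaks (0.998) was 0.908 without width groups and 0.750 over the whole peak. That of TATAAA (1.30) was 0.966 with GC content added, also chosen after seeing the data. The causes of these moves were not tested. Over the 2 shares of peaks and genes, the share covering a TSS, the GC content difference and the ETS odds ratio, 38 alternative values were computed, of which 22 stayed close to the main value and none reversed; TATAAA is not among them. No paired analysis was possible because each target had 1 library, and none could be left out. The lists give no score, so width stood in for a stricter peak threshold, and a peak too weak to be called counts here as absent.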

Other observations

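Of 417 acetylated promoter peaks of 4000 bp or wider, which the rule leaves out, 11 (2.64%, 1.32 to 4.67) had neither FLI1 nor SSRP1. Of 414 olfactory receptor genes, which are silent outside sensory neurons in most tissues, 5 had H3K27ac in a TSS window and 2 of these had neither factor. The 6 members nearest to an olfactory receptor gene all lay beside the TSS, and their promoter windows had a median GC content of 39.2%.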
